A study of Mus musculus with 17 samples.

Results

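The matrix metalloproteinases (MMPs) and their tissue inhibitors (TIMPs) were examined in the infarcted mouse heart as 10 genes chosen by name, 4 TIMPs (Timp1, Timp2, Timp3 and Timp4) and 6 MMPs (Mmp2, Mmp3, Mmp8, Mmp9, Mmp12 and Mmp14), of 31647 features counted. All 10 were found by gene identifier. The libraries came from the hearts of male wild-type C57BL/6J mice aged 8 to 11 weeks, 5d after surgery. In 9 mice the left anterior descending coronary artery (LAD) had been ligated permanently to induce myocardial infarction (MI), and RNA was taken from the infarct zone (IZ). In 8 sham-operated mice the same surgery was done without ligation, and left ventricular (LV) tissue was taken. Sham LV is whole muscle and the IZ is the injured region alone, so the groups differ in the tissue sampled as well as in ligation. RNA was counted by MACE, which sequences 3' ends with unique molecular identifiers, so a transcript gives about one tag whatever its length and counts were not divided by length. Levels are counts per 1000000 counts of TMM-scaled library size (CPM), and spreads are SD over libraries.

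MMPs are zinc-dependent proteases that cleave collagens, elastin, other matrix proteins and many signalling molecules. Most are secreted as inactive proenzymes that other proteases must cut, and the TIMPs bind the active site to block them. In the infarcted heart these enzymes are known to take part in clearing dead muscle and in building the scar. A well known chain joins members of both families: the membrane-anchored MMP14 binds TIMP2, and the complex captures and activates proMMP2.

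The libraries held between 1237675 and 4738307 counts. Mitochondrially encoded features took 22.9% to 32.4% of counts in sham and 4.22% to 6.78% in 8 IZ libraries, but 19.5% in IZ replicate 1, which stood apart. The summed level of 9 cardiomyocyte markers was 74770 to 89830 CPM in sham, 32110 CPM in IZ replicate 1 and 3113 to 7322 CPM in the other IZ libraries. Fibroblast markers rose from 1237 to 2276 CPM in sham to 8337 to 13370 CPM in the IZ, with 6 of 7 upregulated, and all 9 macrophage markers were upregulated, their sum going from 447.7 to 627.9 CPM to 2523 to 6220 CPM. Of all genes tested, 36.3% were called higher. The fibroblast list includes the collagen genes Col1a1 and Col3a1, and its median log2 fold change was 1.57. In bulk tissue, fewer cells of a type and less RNA per cell cannot be told apart, and the part of these shifts in the results was not tested.

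The start regions of 8 members were in the RefSeq table used (GRCm38.p6), with 2 starts for Mmp12. Mmp2 and Mmp9 had no entry. Each entry runs from 250 bases before to 50 bases after a transcript start. The letters of 3 elements known from MMP promoters were searched on both strands: AP-1 (TGANTCA), the TATA box (TATAAA) and PEA3 (AGGAAG). The AP-1 letters were in 7.81% of 32851 promoters in the table, the TATA letters in 13.6% and the PEA3 letters in 35.4%. Shown are the neighbouring chromosome 9 genes Mmp3 and Mmp12, the 2 members that held the AP-1 letters, and Timp1 and Timp4, the TIMPs with the largest rise and the only fall. Capitals mark matches of any of the 3 elements on either strand.

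Mmp3, chr9:7445572-7445871, plus strand: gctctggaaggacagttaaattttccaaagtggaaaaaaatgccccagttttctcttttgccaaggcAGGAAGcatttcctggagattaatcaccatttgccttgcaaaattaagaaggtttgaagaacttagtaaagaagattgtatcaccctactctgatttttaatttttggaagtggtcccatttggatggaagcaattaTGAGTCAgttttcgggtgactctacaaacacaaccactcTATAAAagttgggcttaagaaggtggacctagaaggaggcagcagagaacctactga
Mmp12, second start, chr9:7347124-7347423, plus strand: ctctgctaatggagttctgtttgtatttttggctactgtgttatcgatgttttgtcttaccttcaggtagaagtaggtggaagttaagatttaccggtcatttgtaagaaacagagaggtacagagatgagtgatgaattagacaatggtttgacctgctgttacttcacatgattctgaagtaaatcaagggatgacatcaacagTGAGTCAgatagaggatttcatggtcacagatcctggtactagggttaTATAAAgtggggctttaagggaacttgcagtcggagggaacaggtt
Timp1, chrX:20869916-20870215, plus strand: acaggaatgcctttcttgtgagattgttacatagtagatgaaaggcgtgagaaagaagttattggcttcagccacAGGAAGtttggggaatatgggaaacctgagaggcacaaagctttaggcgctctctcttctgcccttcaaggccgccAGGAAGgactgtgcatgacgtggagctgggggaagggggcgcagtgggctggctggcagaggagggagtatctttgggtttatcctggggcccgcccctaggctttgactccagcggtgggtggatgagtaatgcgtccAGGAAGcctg
Timp4, chr6:115252156-115252455, minus strand: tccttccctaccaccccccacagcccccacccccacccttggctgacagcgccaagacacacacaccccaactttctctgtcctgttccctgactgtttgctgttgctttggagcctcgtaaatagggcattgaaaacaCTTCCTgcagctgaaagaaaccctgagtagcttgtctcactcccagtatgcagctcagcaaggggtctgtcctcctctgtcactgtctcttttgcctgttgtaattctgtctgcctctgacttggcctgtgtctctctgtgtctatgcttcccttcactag

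In Mmp3 the AP-1 match lay 46 to 40 bases before the start, and in Mmp12 44 to 38 bases before its second start. TATA letters followed in both, 7 bases before the start in Mmp3 and 5 bases into the transcript in Mmp12, and Mmp8 held a TATA match across its start. PEA3 letters were in Timp1 at 3 places and in Timp3, Timp4, Mmp3, Mmp8, Mmp12 and Mmp14 once each. No element was found in the Timp2 window. These are matches of letters, and binding was not measured.

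To ask how the families differed between the IZ and sham LV, all 12301 genes that passed a filter on low counts were tested with edgeR's quasi-likelihood F-test, with Benjamini-Hochberg adjustment and a gene called at an adjusted p under 0.05. Of 9 members tested, 7 were upregulated in the IZ, Timp4 was downregulated and Mmp3 did not pass. Mmp9 failed the filter. Across all genes tested, 69.5% were called, 36.3% higher and 33.1% lower, and the median log2 fold change was 0.05. In 5 members (Timp1, Timp2, Mmp2, Mmp12 and Mmp14) every IZ library lay above every sham library, as in 16.6% of genes tested. In Timp4 every IZ library lay below every sham library, as in 16.5%. Mmp8 and Mmp12 could pass the filter only through the IZ and Timp4 only through sham.

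**Figure D1:**
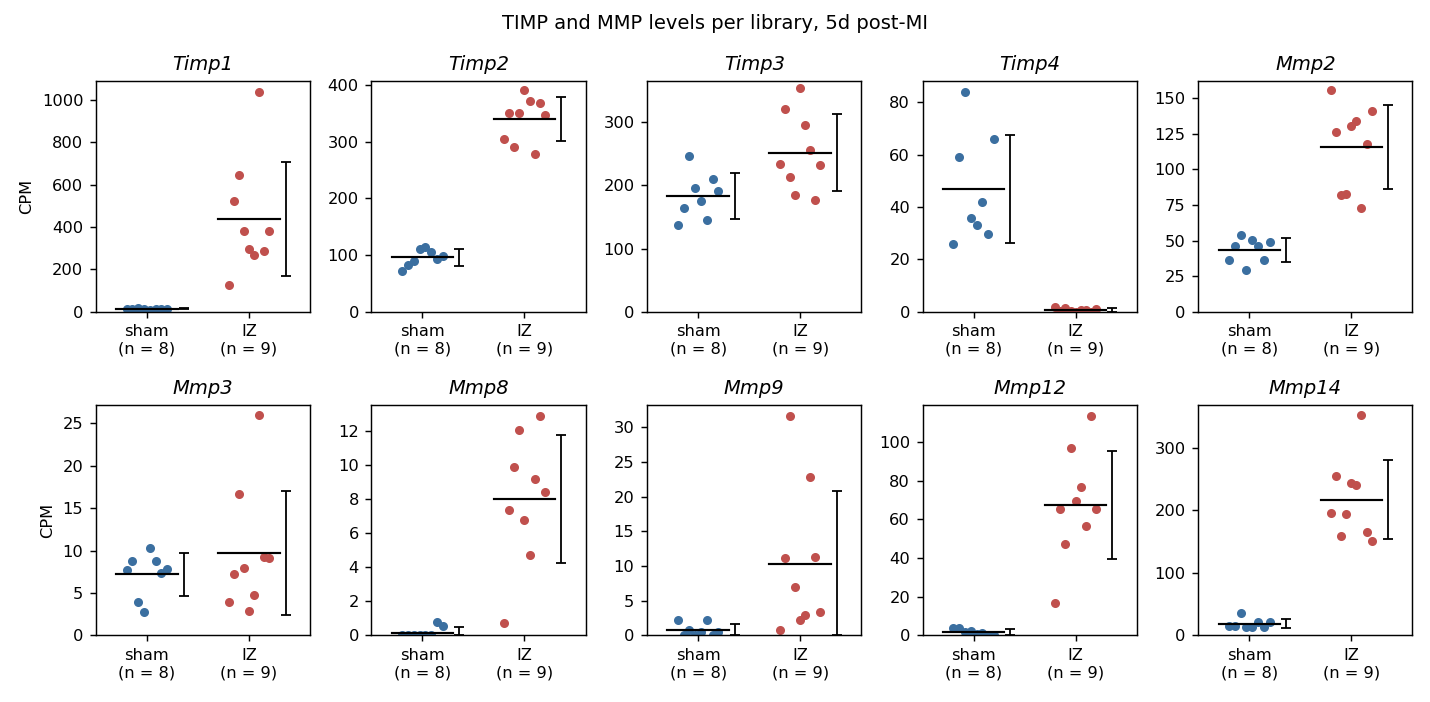
Level of each member in each library. The y axis is CPM on a linear scale from 0, differing between panels. Points are libraries (8 sham, 9 IZ), horizontal lines are means and bars beside them are SD, cut at 0. Timp4 lies between 25.7 and 83.9 CPM in sham and at or below 1.81 CPM in the IZ, while Timp3 and Mmp3 overlap between groups.

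Timp1, the inducible TIMP, is encoded at chrX:20870166-20874735 (mm10). It was counted at 7.76, 13.6 and 17.4 CPM in the lowest, median and highest sham library and at 125, 381 and 1037 CPM in the IZ. The lowest IZ library, replicate 1, was therefore above the highest sham library. Its mean rose from 13.3 ± 2.78 (n = 8) to 438 ± 271 CPM (n = 9), a log2 fold change of 5.05 (SE 0.35, edgeR adjusted p = 2.10e-11). It was the most variable of the TIMPs that rose, with an SD of 61.9% of the mean in the IZ against 11.4% for Timp2. The highest libraries were replicates 7 (1037 CPM), 3 (646 CPM) and 2 (522 CPM).

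Timp2, which inhibits MMPs and also serves as the bridge for proMMP2, lies at chr11:118301069-118355740. Its sham libraries ran from 71.7 through a median of 95.7 to 114 CPM, and the IZ from 279 through 350 to 391 CPM. The groups were far apart and both were tight. The mean rose from 95.7 ± 14.4 to 339 ± 38.8 CPM, with a log2 fold change of 1.82 (SE 0.12, edgeR adjusted p = 1.11e-11).

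Timp3, the TIMP that stays bound to the matrix and also blocks ADAM proteases, lies at chr10:86300372-86349506. It was at 138, 183 and 247 CPM in the lowest, median and highest sham library and at 177, 234 and 355 CPM in the IZ. The groups overlapped, and only 4 of 9 IZ libraries were above every sham library. The log2 fold change was 0.46 (SE 0.15, edgeR adjusted p = 0.0101), the smallest among called members. Scaled by total counts alone it was 1.55, a setting in which the median over all genes was 1.14.

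Timp4, the TIMP known for its high level in the heart, lies at chr6:115241892-115252205. In sham it had 47 to 119 counts per library, or 25.7, 38.8 and 83.9 CPM at the lowest, median and highest. In the IZ it had 0 to 8 counts, or 0, 0.54 and 1.81 CPM. Replicates 5 and 8 had no count. The highest was replicate 1 (1.81 CPM, from 5 counts), the library with the most cardiomyocyte marker RNA (32110 CPM). The next, replicate 3 (1.32 CPM, from 8 counts), had 4567 CPM of these markers, less than replicates 5 and 8 (7322 and 6081 CPM). The mean fell from 46.9 ± 20.6 to 0.68 ± 0.61 CPM, with a log2 fold change of -5.93 (SE 0.35, edgeR adjusted p = 2.36e-12). The IZ mean was below the 1.06 CPM that 3 counts equal there, so the size of the fall is approximate. All 9 cardiomyocyte markers were downregulated too, beside 33.1% of all genes tested. Their median log2 fold change was -3.67, and the part of that loss in the Timp4 value was not tested.

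Among the 6 MMPs, Mmp14 (chr14:54431612-54445364), the membrane type 1 enzyme that cuts fibrillar collagen and activates proMMP2, was the most abundant in the IZ. It was at 13.4, 15.5 and 36.4 CPM in the lowest, median and highest sham library and at 151, 195 and 352 CPM in the IZ. No libraries overlapped. The mean rose from 19.0 ± 7.75 to 217 ± 63.6 CPM, with a log2 fold change of 3.54 (SE 0.21, edgeR adjusted p = 3.43e-12). Its 3' end holds a stretch of 133 bases or less with at least 95% identity to 3 other genes, of which Olfr1238, the only one on the same strand, had 5 counts in all libraries together.

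Mmp2 (chr8:92827291-92853420), the gelatinase made by mesenchymal cells, was the most abundant of the 6 MMPs in sham. Its lowest, median and highest sham libraries were at 29.6, 46.2 and 53.8 CPM and its IZ libraries at 72.7, 127 and 156 CPM. The groups did not overlap, and IZ replicate 1 was the highest library. The mean rose from 43.5 ± 8.45 to 116 ± 29.6 CPM, with a log2 fold change of 1.42 (SE 0.16, edgeR adjusted p = 5.54e-08).

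Mmp12 (chr9:7344381-7369499), the elastase of macrophages, had 0 to 7 counts per library in sham and 46 to 489 in the IZ. This was 0, 1.53 and 4.07 CPM at the lowest, median and highest in sham and 16.7, 65.2 and 114 CPM in the IZ. Replicate 1 was the lowest IZ library and the one with the least macrophage marker RNA (2523 CPM), and replicate 8 was the highest in both (6220 CPM for the markers), and the part of the markers in the Mmp12 level was not tested. The log2 fold change was 5.31 (SE 0.41, edgeR adjusted p = 1.46e-10), with means of 1.76 ± 1.54 and 67.5 ± 27.8 CPM. The sham mean was below the 1.79 CPM that 3 counts equal there, so the size of the rise is approximate.

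Mmp8 (chr9:7558456-7568485), the collagenase of neutrophil granules, had 0 to 2 counts per library in sham and 2 to 61 in the IZ. Its sham libraries were at 0 CPM except replicates 7 and 8, and the IZ libraries were at 0.72, 8.45 and 12.9 CPM at the lowest, median and highest. IZ replicate 1, with 2 counts, was the one library inside the sham range. The IZ mean of 8.02 ± 3.73 CPM was at least 4.48-fold higher than the sham floor of 3 counts per library, and the gene was called higher (edgeR adjusted p = 2.13e-07).

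Mmp9 (chr2:164940780-164955850), a gelatinase of neutrophils and macrophages, had 0 to 4 counts per library in sham and 2 to 192 in the IZ, too few libraries at high count to pass the filter. Its lowest, median and highest IZ levels were 0.72, 6.93 and 31.6 CPM, and 8 of 9 were above every sham library. Replicates 3 (31.6 CPM) and 7 (22.8 CPM) were the highest, as they were for Timp1 and Mmp3. The mean difference of 9.56 CPM gave p = 0.00572 in an exact two-sided permutation test over all 24310 assignments of the libraries to the groups, a test added after the filter result was seen. With no filter, edgeR gave a log2 fold change of 3.88 (SE 0.64, adjusted p = 2.59e-06).

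Mmp3 (chr9:7445822-7455975), stromelysin, which also activates other MMPs, was at 2.79, 7.72 and 10.3 CPM in the lowest, median and highest sham library and at 2.83, 7.92 and 26.0 CPM in the IZ. The medians were close, and only replicates 3 (16.7 CPM) and 7 (26.0 CPM) were above every sham library. The log2 fold change of 0.42 (SE 0.36) did not pass the test (edgeR adjusted p = 0.304). Scaled by total counts alone it was 1.53 and passed (edgeR adjusted p = 0.000422), a setting in which the median over all genes also shifted to 1.14. Its 3' end shares 211 bases at 96.2% identity with Gm15242, which had 2 counts in all libraries together.

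**Figure D2:**
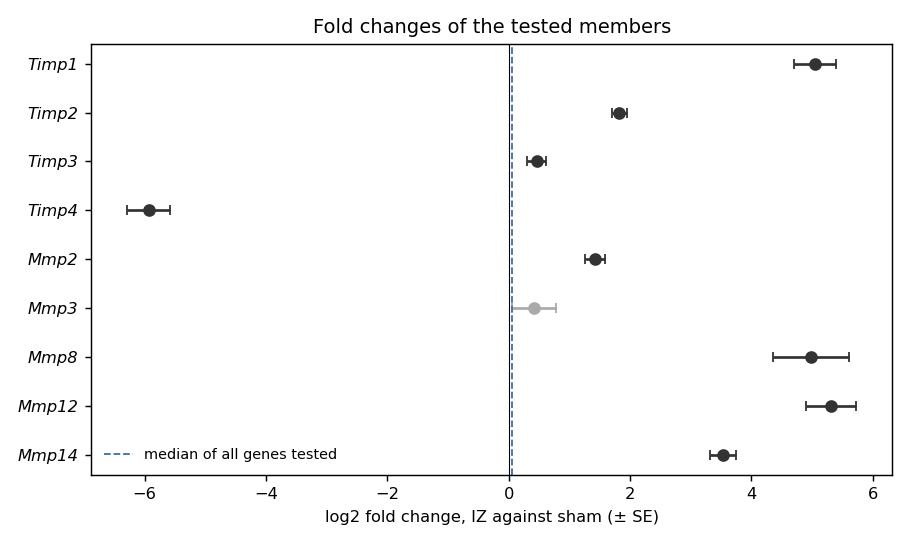
Log2 fold change of the 9 tested members, IZ against sham LV, on the x axis, with bars of 1 SE. Dark points were called at an adjusted p under 0.05, the grey point (Mmp3) was not, and the dashed line is the median over 12301 genes (0.05). Timp4 at -5.93 is the one member that fell.

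Ly6g, a defining neutrophil marker, had no count in sham and at most 1 count in any IZ library, and the granule genes Camp, Ngp and Ltf had at most 3. Mpo, another granule gene, had no count in sham and 0 to 7 per IZ library. Cxcr2 and Retnlg had 0 to 3 counts per sham library and 0 to 24 and 0 to 13 in the IZ. The neutrophil list as a whole, 10 genes with a row, summed to 4.44 to 12.3 CPM in sham and 15.2 to 211 CPM in the IZ. All 3 of its genes that were tested (S100a8, S100a9 and Csf3r) were called higher, beside 36.3% of all genes tested. They had at most 15, 11 and 3 counts in a sham library, so they could pass the filter only through the IZ. The IZ libraries highest in the neutrophil sum were replicates 7 (211 CPM) and 3 (166 CPM), and replicate 1 was the lowest. Their part in the Mmp8, Mmp9 and Timp1 levels was not tested.

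The order of the inhibitors differed between the groups. In sham the order was Timp3, Timp2, Timp4 and Timp1, and each step held in 8 of 8 libraries. In the IZ Timp1 had the highest mean, but exceeded Timp2 in only 5 of 9 libraries, so these neighbours did not differ beyond their spread. Timp2 exceeded Timp3 and Timp3 exceeded Timp4 in 9 of 9. As a share of TIMP counts, which no library scaling changes, Timp1 went from 3.97% ± 0.87 to 39.7% ± 14.6 and Timp3 from 53.9% ± 4.06 to 25.4% ± 6.96. Timp4 went from 13.5% ± 4.36 to 0.0746% ± 0.0851, and Timp2 changed least, from 28.6% ± 4.71 to 34.9% ± 9.16. These shares are descriptions and were not tested.

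The 6 MMPs were ordered Mmp2, Mmp14, Mmp3 and Mmp12 in sham, each step in 8 of 8 libraries, with Mmp9 and Mmp8 near 0. In the IZ Mmp14 exceeded Mmp2 in 9 of 9 libraries, Mmp2 exceeded Mmp12 in 8 of 9, and Mmp12 exceeded Mmp9 in 9 of 9, while Mmp9, Mmp3 and Mmp8 did not differ beyond their spread. Of the counts of these 6 MMPs, Mmp2 held 60.3% ± 3.75 in sham and 27.7% ± 8.38 in the IZ. Mmp14 held 25.8% ± 5.81 and 49.9% ± 8.13, and Mmp12 2.60% ± 2.36 and 15.8% ± 6.62. Outside the 6, Mmp15 had a higher mean in sham (85.1 CPM) than Mmp2 (43.5 CPM). The 6 MMPs together had 21.6 ± 4.35 counts per 100 TIMP counts in sham and 43.1 ± 8.36 in the IZ, and the groups did not overlap (highest sham 26.2, lowest IZ 30.1). This holds for the 6 chosen MMPs only. Of 5 other MMPs tested, 4 were called higher and 1, Mmp15, lower. Mmp15 went from 85.1 to 14.9 CPM and Mmp23 from 17.1 to 136 CPM. A ratio over all MMPs could therefore differ and was not computed. Summed levels were 339 ± 54.6 and 1030 ± 259 CPM for the 4 TIMPs and 72.4 ± 14.8 and 429 ± 60.4 CPM for the 6 MMPs.

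**Figure D3:**
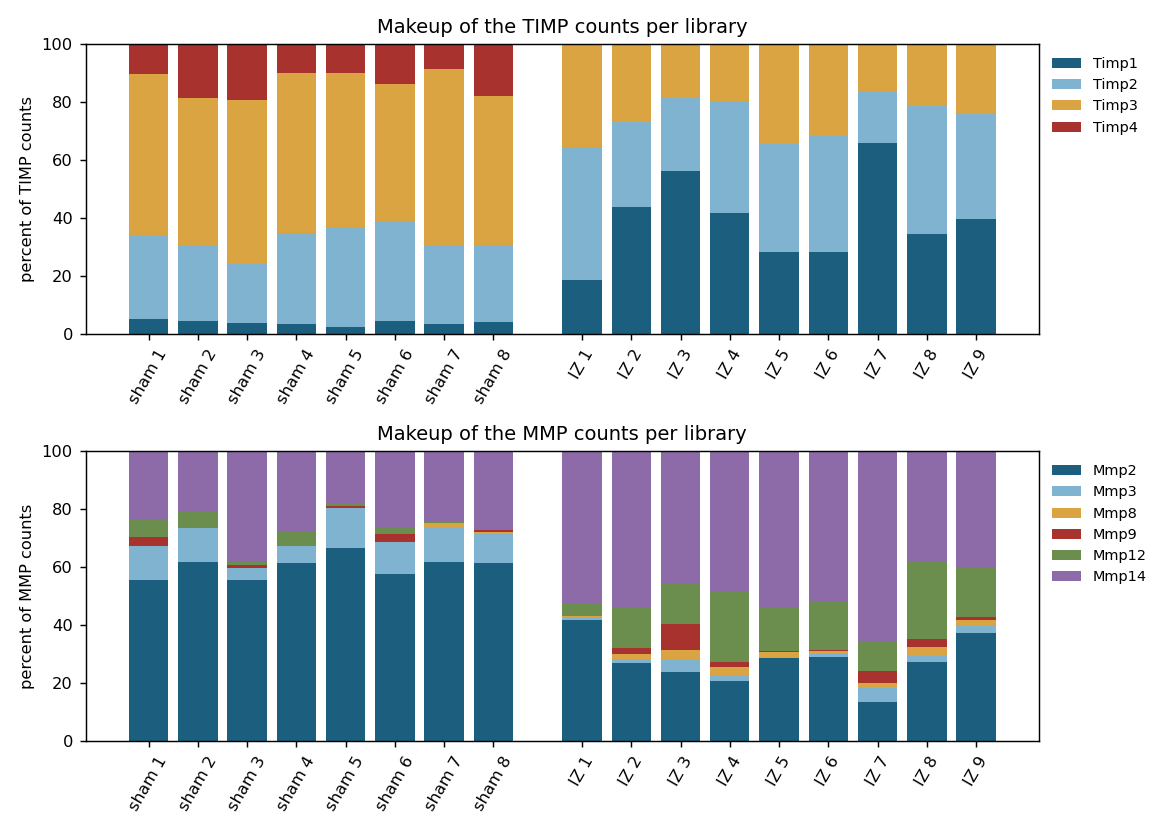
Percent of the counts of the 4 TIMPs (top) and of the 6 chosen MMPs (bottom) taken by each member, 1 bar per library. Sham libraries are on the left and IZ libraries on the right. Timp4 (top of the upper bars) holds 8.63% to 19.2% in sham and at most 0.272% in the IZ, and Mmp14 (top of the lower bars) holds at most 37.7% in sham and at least 38.3% in the IZ.

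For the MMP14, TIMP2 and proMMP2 chain, the IZ had 65.4 ± 24.7 Mmp14 counts per 100 Timp2 counts against 20.4 ± 9.09 in sham. Mmp2 per 100 Timp2 counts went from 46.3 ± 10.3 to 34.2 ± 8.31, with overlap. Mmp2 per 100 Mmp14 counts fell from 245 ± 63.1 to 57.7 ± 21.5, with no overlap (lowest sham 148, highest IZ 93.5).

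Next, 5 pairs of members were compared across the 9 IZ libraries on log2 CPM, with exact permutation over 362880 pairings and adjustment over the 5 pairs. Timp1 and Mmp9 varied together (Pearson r = 0.871, exact permutation p = 0.00239, adjusted 0.0119), while the rank correlation did not pass after adjustment (Spearman rho = 0.783, exact permutation p = 0.0172, adjusted 0.0535). Without the 2 libraries farthest from the Timp1 median, replicates 1 and 7, r was 0.759 and did not pass after adjustment (exact permutation p = 0.0482, adjusted 0.241). Without replicate 1 alone it was 0.782 and did not pass either (adjusted 0.0526). Mmp8 and Mmp9 had r = 0.736 (exact permutation p = 0.0107, adjusted 0.0266) and rho = 0.767 (exact permutation p = 0.0214, adjusted 0.0535). Without replicates 1 and 6, the farthest from the Mmp8 median, r was 0.395 (exact permutation p = 0.376). Leaving out replicate 1 alone gave 0.546 and replicate 6 alone 0.73, so the relation rests mainly on replicate 1. In that library Mmp8 and Mmp9 had 2 counts each, so its Mmp9 value in the Timp1 pair is also a 2-count value. The adjusted p was above the threshold without replicate 6 (0.0599) or 7 (0.0684) as well.

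The 3 pairs of the activation chain did not pass. Mmp2 and Mmp14 had r = -0.259 and rho = -0.183 (exact permutation p = 0.503 and 0.644, adjusted 0.628 and 0.776). Mmp14 and Timp2 had r = -0.155 and rho = 0.117 (exact permutation p = 0.692 and 0.776, adjusted 0.692 and 0.776), and Mmp2 and Timp2 had r = 0.537 and rho = 0.367 (exact permutation p = 0.143 and 0.336, adjusted 0.238 and 0.560). Without the 2 farthest libraries r was 0.0322, 0.531 and -0.269 in turn, so no direction can be given for any of them.

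**Figure D4:**
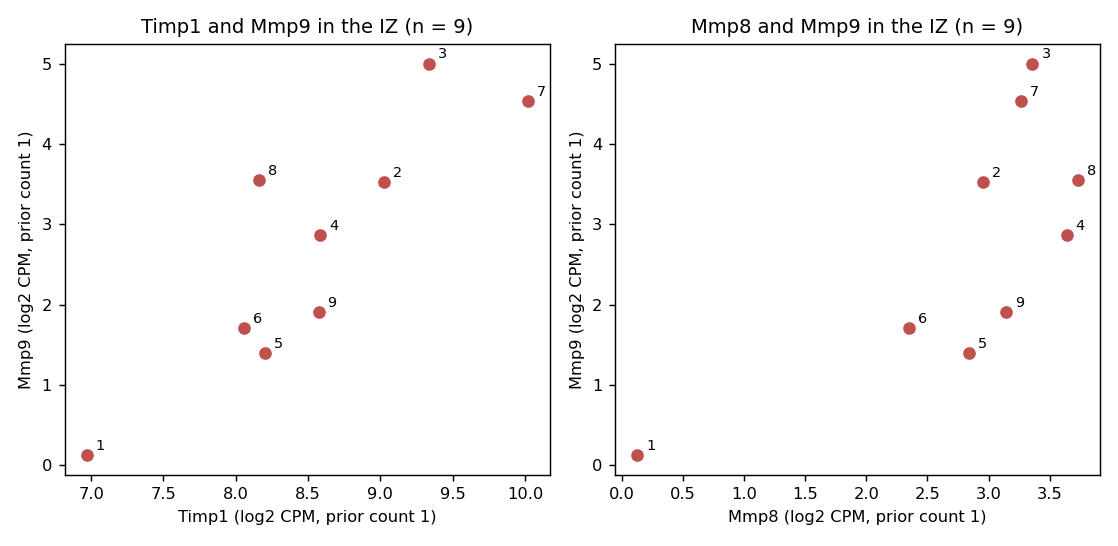
Mmp9 against Timp1 (left) and against Mmp8 (right) in the 9 IZ libraries, both axes in log2 CPM with a prior count of 1, points labelled by replicate. Replicate 1 lies lowest on every axis, and replicates 3 and 7 hold the highest Mmp9 values.

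By likeness of pattern over the 9 IZ libraries, among 9130 genes of at least 10 CPM, the genes closest to Timp1 were Prg4 (r = 0.982), Gnptab (0.959) and Ywhaz (0.952). Those closest to Mmp14 were Atp2b4 (0.941), Tmem184b (0.940) and Srek1 (0.927). The libraries share depth and tissue makeup, and these values are descriptions.

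Beyond the 10 members, 5 of 17 other MMPs were tested, and 4 were called higher and 1 lower. Mmp17 and Mmp19 had 3 to 5 and 1 to 13 counts per sham library, so they could pass the filter only through the IZ. Mmp23 rose from 17.1 ± 3.59 to 136 ± 30.6 CPM (log2 fold change 2.99, edgeR adjusted p = 4.72e-13). Mmp19 rose from 3.33 ± 2.21 to 25.9 ± 9.32 CPM (2.94, edgeR adjusted p = 3.04e-08). Mmp17 rose less (1.34, edgeR adjusted p = 0.000212) and was tested in only 14 of the 26 alternatives of the fit. Mmp15, another membrane-type MMP, fell from 85.1 ± 9.72 to 14.9 ± 8.24 CPM (-2.55, edgeR adjusted p = 3.90e-10), opposite to Mmp14. Mmp13, an interstitial collagenase of the mouse, had 0 to 18 counts per IZ library and was not tested. Mmp1b, Mmp7 and Mmp20 were not analysed here.

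Of 13 tested genes that activate, bind or restrain MMPs, 10 were called higher, 2 lower and 1 (Reck) was not called. Thbs1 and Cd44 had the highest log2 fold changes (3.67 and 2.98, edgeR adjusted p = 1.32e-10 and 8.41e-12), and Thbs2, a matrix protein that helps clear MMP2, followed at 2.95 (edgeR adjusted p = 6.71e-12). Plau, the urokinase gene, rose from 10.4 ± 2.62 to 23.8 ± 5.38 CPM (1.19, edgeR adjusted p = 2.65e-06). Furin, the convertase that cuts proMMP14, had a log2 fold change of 0.28 (SE 0.11, edgeR adjusted p = 0.0267), a call lost without sham replicate 3, 5 or 6 (0.26, 0.26 and 0.23, adjusted p = 0.0513, 0.0511 and 0.0709). Reck, a membrane inhibitor of MMPs, had 0.29 (SE 0.27, edgeR adjusted p = 0.345). Bsg, which induces MMPs in neighbouring cells, fell from 1297 ± 189 to 468 ± 96.4 CPM (-1.47, edgeR adjusted p = 6.60e-09), and Pcsk6 had -0.81 (edgeR adjusted p = 0.00456). Lcn2, which binds MMP9, was at 3.16 ± 3.31 CPM in sham and 2.26 ± 1.31 CPM in the IZ and was not tested.

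All 7 ADAM sheddases, membrane proteases of which several are blocked by TIMP3, were called higher. Adam8 rose from 2.72 ± 1.16 to 129 ± 47.7 CPM (log2 fold change 5.58, edgeR adjusted p = 8.18e-12) and Adam12 from 1.71 ± 0.98 to 40.2 ± 13.8 CPM (4.58, edgeR adjusted p = 1.55e-11). With 2 to 7 and 1 to 5 counts per sham library, Adam8 and Adam12 could pass the filter only through the IZ. The smallest log2 fold changes were those of Adam15 (0.79, edgeR adjusted p = 7.16e-05) and Adam17 (0.94, edgeR adjusted p = 4.61e-07). Of 5 tested AP-1 subunits, transcription factors of the FOS and JUN families, only Fosl2 was called, from 22.2 ± 5.07 to 42.9 ± 9.90 CPM (0.97, edgeR adjusted p = 1.11e-05). Without IZ replicate 1, Fos and Jun were called lower (-0.96 and -0.55, edgeR adjusted p = 0.0145 and 0.00776), and Fos also without sham replicate 7 or 8 (-0.91 and -0.92, edgeR adjusted p = 0.0348 and 0.0304). The median log2 fold change was 1.52 for the other MMPs, 1.85 for the control genes, 1.54 for the ADAMs and -0.03 for the AP-1 subunits, beside 0.05 over all genes tested. Across all genes tested, 36.3% were called higher and 33.1% lower. Genes low in sham were tested only if high in the IZ, so the counts called per list and these medians are descriptions.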

How the data were processed

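MACE 3' end libraries of 8 sham LV and 9 IZ samples were analysed, grouped by the treatment labels. The authors deposited raw counts per gene, with duplicates removed by molecular identifiers. The submitters' processing notes name bcl2fastq, Bowtie2, HTSeq, DESeq2 and mm10; reads had been trimmed with Cutadapt. Versions of bcl2fastq, Bowtie2 and HTSeq and the annotation release are not given in the sources used here. The table carries separate antisense features. Gene positions are from GENCODE vM21 on mm10.

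Genes were filtered with filterByExpr (minimum count 10), scaled by TMM and tested with edgeR 4.0.16 in R 4.3.3. The SE of an edgeR log2 fold change is its absolute value divided by the square root of the F statistic, so it is derived from the test. The TMM factors did not overlap between groups, 0.613 to 0.726 in sham and 1.05 to 1.54 in the IZ, so fold changes depend on the scaling. DESeq2 1.42.0 was an alternative. Timp1, Timp3 and Timp4 overlap Syn1, Syn3 and Syn2 on the opposite strand and Timp2 overlaps Cep295nl on the same strand, with at most 52 counts each. Similar 3' ends were searched with BLAST 2.17.0 over the last 500 bases (at least 100 bases, 95% identity). Tests were checked on simulated data. The check of edgeR changed few genes, equally in both directions, while 69.5% of genes tested were called here. It therefore does not cover the scaling or error rate in this setting. Depth limits single values: 3 counts equal 1.79 CPM on average in sham and 1.06 in the IZ, counting error only.

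Members and lists were chosen with earlier results of these data known. Named pathway genes were the 2 highest and 2 lowest called per list plus Furin, Reck, Plau, Lcn2, Cd44, Thbs2, Mmp13 and Mmp19; a further gene of the rule is not reported here. The promoter search was widened from the 250 bases before the start, where AP-1, TATA and PEA3 letters were in 6.75%, 12.4% and 29.5% of promoters, to the whole entry after the first matches were seen. This added the TATA matches of Mmp8 and Mmp12 and one PEA3 match of Timp1.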

Additional observations from a re-analysis of the deposited data

Results flagged for a closer look

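One value stood apart from its group: Mmp14 in sham replicate 3 was at 36.4 CPM, and the gap to the next sham library was 0.641 of the group's range, above Dixon's critical value of 0.526 for 8 samples. It was still below every IZ library. Of 20 groups of values examined this was the only one, and chance alone flags about 1 in 20.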

How the results depend on the processing

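The calls of Timp1, Timp2, Timp3, Mmp2, Mmp12 and Mmp14 held under all 26 alternatives of the fit. Among these, replicates 1 to 8 with no block is the same fit as that without IZ replicate 9. Timp4 and Mmp8 kept their call wherever they were tested. Timp4 was left out of testing at a minimum mean of 50 counts, where 5239 genes were called and 0 members were lower, since fewer genes were tested. Mmp8 was tested in 15 of the 26 and failed the filter when any one of IZ replicates 2 to 9 was left out. Total counts alone raised the median of all genes to 1.14, with 85.8% of calls higher against 52.3%, and turned the sign of Fos (0.28), Jun (0.68), Jund (1.04) and Pcsk6 (0.24). Jund, near 0, was also above 0 under upper quartile scaling (0.0791), no filter (0.0247) and the replicate block (0.00670), and ran from -0.179 to 0.0647 with single libraries left out. Of the other MMPs, 8 were called higher with no filter, 7 by DESeq2 and 2 at a minimum mean of 50 counts, against 4. Mmp17 was tested in 14 of the 26 and kept its call there. It failed the filter when any one of IZ replicates 2 to 9 was left out, where 3 of the other MMPs were called higher. Of the AP-1 subunits, 4 were called higher with total counts alone and 2 with no filter, by DESeq2 or with the replicate block, against 1, and 2 were called lower with no filter and 1 by DESeq2, against 0. The causes of these changes were not tested.

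Replicate numbers did not pair the samples: correlations of same-numbered deviations ran from -0.22 to 0.13, and 1 of 8 sham libraries correlated best with its own number. The replicate block called 7883 genes, against 8153 in the same libraries without it, a comparison added after the data were seen.

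With single libraries left out, r ran from -0.501 to 0.282 for Mmp2 and Mmp14, from -0.407 to 0.487 for Mmp14 and Timp2, from 0.277 to 0.798 for Mmp2 and Timp2, from 0.782 to 0.934 for Timp1 and Mmp9, and from 0.546 to 0.778 for Mmp8 and Mmp9. Without the 2 farthest libraries these were 0.0322, 0.531, -0.269, 0.759 and 0.395. Total counts turned Mmp14 and Timp2 to 0.314, and a prior count of 5 left Mmp8 and Mmp9 at 0.681 (adjusted p = 0.0741, exact permutation). The cause was not tested.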
